A study of Mus musculus with 18 samples.

Results

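The genes described here encode splicing factors and heterogeneous nuclear ribonucleoproteins (hnRNPs), and they were followed while mouse erythroid precursor cells matured in culture. They were chosen by symbol alone. A gene was taken when a probe set carrying its symbol and no other had a name beginning with Srsf, Snrp, Sf3a, Sf3b, Hnrnp, Prpf, U2af or Lsm and a digit. Where a gene had more than 1 such probe set, the one with the highest mean signal stood for it. This gave 59 of the 8251 genes that the array named singly. The cells were G1E-ER4, 1 subclone of a line grown from mouse embryonic stem cells that lack Gata-1, the master transcription factor of red cell development. They carry Gata-1 fused with the estrogen receptor's ligand-binding part (Gata-1-ER), and estradiol switches that protein on. RNA was taken at 0 h, before the hormone, and after 3, 7, 14, 21 and 30 h of estradiol, in 3 replicates a time that the labels call biological and letter A, B and C. All 18 samples therefore lacked Gata-1 of their own and carried the fusion. No arrays of estradiol-treated cells without the fusion, nor of untreated cells kept to the later times, were analysed here, so the hormone, the time in culture and Gata-1 activity cannot be told apart.

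Splicing removes introns from pre-mRNA. It is carried out by the spliceosome, which assembles on each intron from U1, U2, U4, U5 and U6 small nuclear ribonucleoproteins (snRNPs). Sm proteins form a ring on most of these RNAs, a ring of Lsm proteins binds U6, the Sf3a and Sf3b complexes and U2af select the branch site and 3′ splice site, and Prpf proteins build and activate the catalytic core. SR proteins and hnRNPs bind exons and introns and shift the choice of splice sites. Late erythroblasts shrink, condense their nuclei and stop most transcription while they make globin.

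By 30 h most of these genes had fallen. Of the 59 genes, 40 were lower and 2 were higher at 30 h than at 0 h (limma, adjusted p under 0.05 over all probe sets), against a background of 13.8% of the 12422 tested probe sets called lower and 12.8% called higher. The share lower was thus 67.8% of these genes. Their median log2 change was -0.91, beside 0.05 for all tested probe sets, and single genes lay between -3.18 and 1.42. The arrays of 30 h and 0 h did not overlap in 46 of the 59 genes, beside 4662 of the 12422 probe sets, so such separation was common. A called fall of at least 2-fold was measured for 26 of the 59, beside 1074 of the 12422 probe sets. In bulk RNA, fewer cells of a type and less RNA per cell cannot be told apart, and since all arrays shared nearly the same trimmed mean signal, each change is relative to the rest of the RNA. A mean signal of 100 or more over the 18 arrays was read for 53 of the 59 genes and for 4347 of all probe sets. Among those 4347, the background was 29.3% called lower and 28.2% called higher. Of the 53, 39 genes were lower and 1 was higher, or 73.6% and 1.89%, with a median log2 change of -0.99. A called fall of at least 2-fold was found for 25 of the 53, beside 780 of the 4347. Full separation of the arrays of 30 h and 0 h was found for 44 of the 53, beside 2886 of the 4347.

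Most of the calls came at 14 h or later, while the median fall grew from 7 h on. At 3 h 0 of the 59 genes were called in either direction, when 0.306% of all probe sets were called lower and 0.757% higher. At 7 h only Hnrnpdl was lower and 0 were higher, against backgrounds of 1.69% and 2.48%. At 14 h 16 were lower and 1 was higher, against 6.77% and 6.55%. The 14 h count was 7 in all when the arrays were scaled to a common median, and 9 in all without the 14 h array A. At 21 h 35 genes were lower and 1 was higher, against 10.9% and 9.75%. The medians of the 59 log2 changes were 0.01 after 3 h, -0.12 after 7 h, -0.39 after 14 h, -0.71 after 21 h and -0.91 after 30 h. Of the 40 genes lower at 30 h, array A gave the lowest of the 3 signals for 12 at 0 h, 31 after 14 h, 35 after 21 h and 15 after 30 h. The part of that array in the counts at 14 and 21 h was tested only by leaving it out, and 31 genes were called at 21 h without it. An F test over all 6 times called 40 of the 59 genes, against a background of 27.2%.

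**Figure D1:**
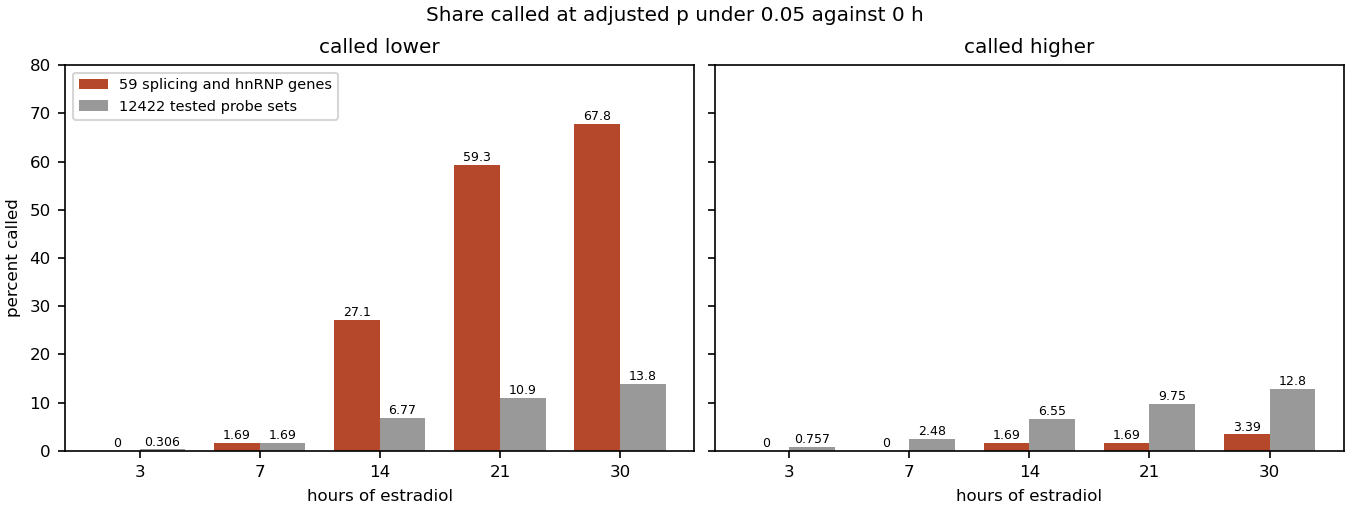
Percent of features called lower (left panel) and higher (right panel) against 0 h at adjusted p under 0.05, by hours of estradiol, for the 59 splicing and hnRNP genes (left bars) and the 12422 tested probe sets (right bars). At 30 h 67.8% of the genes were lower, against 13.8% of all probe sets, while 3.39% and 12.8% were higher.

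Counted by the first time of a call, 1 gene was called from 7 h, 16 from 14 h, 20 from 21 h and 7 only at 30 h. Srsf9 was lower at 14 h alone, with a log2 change of -0.43 (adjusted p = 0.0389), and Hnrnpu at 21 h alone, with -0.72 (adjusted p = 0.00931). The 15 genes called in none of the comparisons against 0 h were Hnrnpc, Hnrnph2, Hnrnph3, Hnrnpl, Hnrnpr, Hnrnpul2, Lsm14a, Lsm14b, Prpf38a, Prpf38b, Prpf39, Prpf4b, Snrpc, Srsf4 and U2af1l4. Of these, Prpf38a was called by the F test (adjusted p = 0.03). A missed call does not show that their RNA stayed level. The F test did not call Hnrnpu, Sf3a1, Sf3a2, Snrpb2 or Srsf9, though each was called in a comparison against 0 h. Their adjusted p-values in the F test were 0.091, 0.0607, 0.106, 0.0638 and 0.169.

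**Figure D2:**
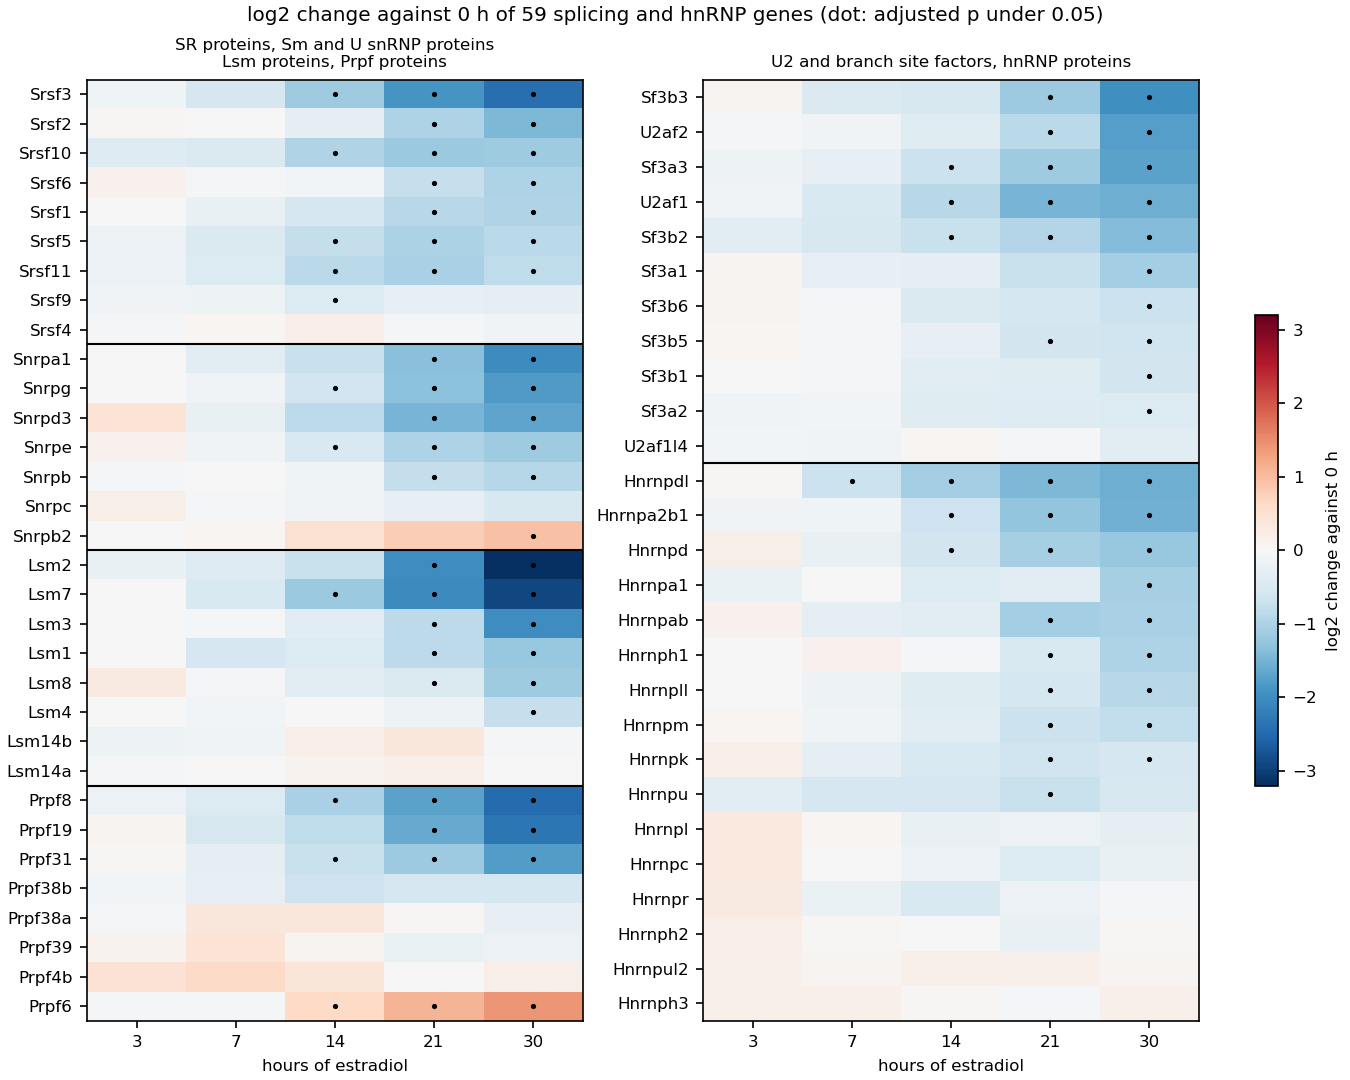
Colour gives the log2 change of each of the 59 genes against 0 h (rows, grouped by role) at 3, 7, 14, 21 and 30 h (columns), blue for lower and red for higher, and a dot marks adjusted p under 0.05. Most rows turn blue from 14 h on, from Lsm2 at -3.18 at 30 h upward, and Prpf6 is the row that reaches 1.42.

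The Prpf genes held both the largest rise of the 59 and, in Prpf8, the largest fall outside the Lsm genes. Of 8 genes, 3 were lower and 1 was higher at 30 h, or 37.5% and 12.5%, with a median log2 change of -0.41. The shares of all probe sets were 13.8% and 12.8%, and among those of mean signal 100 or more 29.3% and 28.2%. In the other role groups the share lower ran from 56.2% (hnRNPs) to 90.9% (U2 and branch site factors). Prpf8, the large U5 protein at the heart of the spliceosome, lies at chr11:75486777-75509447 (GRCm38.p6). Its signals on arrays A, B and C were 1498, 1815 and 1912 at 0 h, 1485, 1623 and 1618 after 3 h, 1157, 1442 and 1348 after 7 h, 825, 883 and 944 after 14 h, 429, 611 and 635 after 21 h and 315, 306 and 307 after 30 h. Every array from 7 h on was below every 0 h array, and the 3 arrays at 30 h lay almost on top of each other. The log2 change at 30 h was -2.45 ± 0.13 (SE, 3 arrays a time, adjusted p = 2.89e-11), or 5.46-fold lower.

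Prpf6, which bridges U5 with the paired U4 and U6 snRNPs, lies at chr2:181601319-181655661 and moved the other way. It read 584, 720.1 and 895.5 at 0 h, 626.5, 809 and 689 after 3 h, 734, 729 and 629.6 after 7 h, 1141, 1102 and 1172 after 14 h, 1583.5, 1633 and 1699 after 21 h and 1870.4, 2358 and 2199 after 30 h. The arrays of the first 3 times overlapped, and from 14 h on each time lay wholly above the one before. The log2 change was 0.65 ± 0.14 at 14 h (adjusted p = 0.00337) and 1.42 ± 0.14 at 30 h (adjusted p = 1.85e-07), a 2.67-fold rise. With arrays scaled to a common median, the 14 h value was 0.61 and its adjusted p was 0.0513. Prpf6 and Prpf8 are each read by 1 probe set with no mark of cross-hybridization in its name.

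The other 2 falling Prpf genes also separated fully by 30 h. Prpf19, the ubiquitin ligase of the complex that stabilizes the active spliceosome, read 156, 249.9 and 138.5 at 30 h, against 664.5, 993 and 1277.5 at 0 h (log2 change -2.31 ± 0.27, adjusted p = 1.43e-06). Prpf31 belongs to the tri-snRNP of U4, U6 and U5. It read 159.8, 116.6 and 73.2 at 30 h, against 414, 439 and 497 at 0 h (-1.78 ± 0.23, adjusted p = 4.89e-06). Not called at 30 h were Prpf38b at -0.56 (adjusted p = 0.0742), Prpf38a at -0.26, Prpf39 at -0.19 and the kinase Prpf4b at 0.19. Prpf39 was too dim to read a change, with a mean signal of 13.5 over all arrays, and Prpf4b averaged 51.8. Within the tri-snRNP, then, the RNA of Prpf6 was higher while that of Prpf8 and Prpf31 was lower in the same samples.

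**Figure D3:**
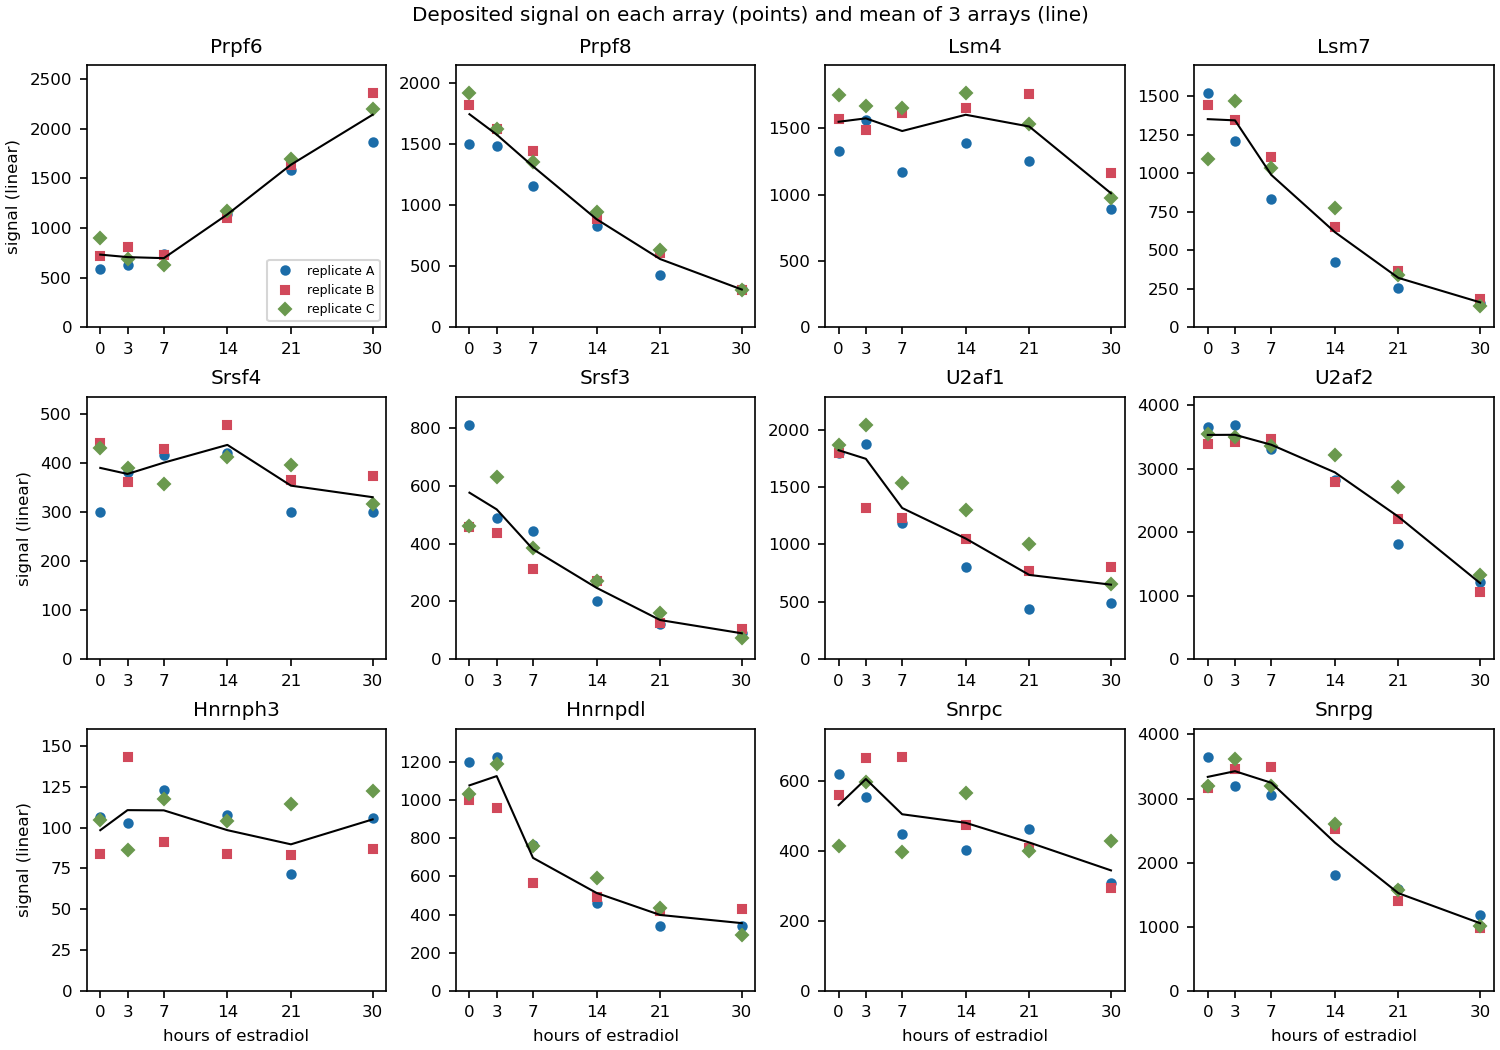
Signal on each array (points, marked by replicate letter) and the mean of 3 arrays (line) against hours of estradiol, on linear axes from 0, for 12 genes. Prpf6 climbs to between 1870.4 and 2358 at 30 h while Prpf8 drops to between 306 and 315, and Srsf4, Hnrnph3 and Snrpc have arrays at 30 h that overlap those at 0 h.

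The promoters of the rising gene and of 3 genes that fell are shown because they let the sequence at the start of each gene be read beside its course. They run from 250 bases before to 50 bases after the transcription start, 5′ to 3′ on the gene's own strand, and come from RefSeq on build GRCm38.p6. Capitals mark matches, on either strand, to CCAAT (the CCAAT box), CCGGAAG (an ETS factor site) or TATAAA (the TATA box). A match on the opposite strand shows as the reverse complement of those letters.
Prpf6, chr2:181601069-181601368, + strand: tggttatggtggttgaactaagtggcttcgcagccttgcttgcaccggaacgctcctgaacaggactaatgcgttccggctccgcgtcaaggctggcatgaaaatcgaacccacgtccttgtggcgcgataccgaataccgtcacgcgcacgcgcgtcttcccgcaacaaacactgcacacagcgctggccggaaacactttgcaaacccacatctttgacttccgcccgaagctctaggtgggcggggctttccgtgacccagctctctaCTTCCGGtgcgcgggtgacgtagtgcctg
Prpf8, chr11:75486527-75486826, + strand: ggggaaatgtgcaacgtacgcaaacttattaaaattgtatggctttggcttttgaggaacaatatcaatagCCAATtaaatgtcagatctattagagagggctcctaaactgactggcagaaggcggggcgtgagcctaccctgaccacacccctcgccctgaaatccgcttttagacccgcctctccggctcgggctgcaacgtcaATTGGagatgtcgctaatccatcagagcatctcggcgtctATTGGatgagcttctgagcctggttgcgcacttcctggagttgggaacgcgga
Snrpg, chr6:86371290-86371589, + strand: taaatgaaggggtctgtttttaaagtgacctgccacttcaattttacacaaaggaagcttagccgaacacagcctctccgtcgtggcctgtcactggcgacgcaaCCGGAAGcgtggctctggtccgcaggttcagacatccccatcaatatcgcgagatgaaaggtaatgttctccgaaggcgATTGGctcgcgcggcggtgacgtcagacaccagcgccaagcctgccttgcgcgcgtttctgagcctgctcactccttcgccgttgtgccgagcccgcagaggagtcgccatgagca
Srsf2, chr11:116853045-116853344, - strand: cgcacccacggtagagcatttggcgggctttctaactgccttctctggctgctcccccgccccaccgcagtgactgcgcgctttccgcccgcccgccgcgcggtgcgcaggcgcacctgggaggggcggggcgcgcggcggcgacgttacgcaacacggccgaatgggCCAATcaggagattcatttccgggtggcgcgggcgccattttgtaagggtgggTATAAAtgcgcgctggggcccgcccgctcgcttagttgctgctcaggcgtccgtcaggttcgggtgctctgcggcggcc
The Prpf6 window held 1 ETS match and none of the other letters searched, Prpf8 held 3 CCAAT matches, Snrpg held 1 CCAAT and 1 ETS match, and Srsf2 held 1 CCAAT and 1 TATAAA match. All 3 falling genes shown held CCAAT, but the windows of Lsm3, Lsm7 and Lsm8, which also fell, held none of the letters searched. RefSeq windows were found for 52 of the 59 genes, 66 windows in all. CCAAT stood in 47% of them and in 53.3% of the 45 windows of genes lower at 30 h, beside 37% of the 8409 windows of genes on the array and 37.4% of all 32851 windows. In the same order, CCGGAAG stood in 30.3% and 31.1%, beside 14.4% and 8.86%. TATAAA stood in 7.58% and 11.1%, beside 9.98% and 13.6%. The E-box CACGTG stood in 6.06% and 4.44%, beside 9.55% and 7.15%. Of the GATA letters, AGATAA stood in 4.55% and 4.44%, beside 7.27% and 11.2%, and TGATAA in the same 4.55% and 4.44%, beside 5.17% and 9.05%. No searched motif contains another. The median GC content was 60.8% in the windows of these genes, beside 59.7% for genes on the array. A match is a string of letters and says nothing here of binding, and these shares were not tested.

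The Lsm genes held the 2 largest falls of the 59. Of their 8, 6 were lower and 0 were higher at 30 h, with a median log2 change of -1.17. The share lower was 75%, beside 13.8% of all probe sets and 29.3% of those of mean signal 100 or more. Lsm2, a subunit shared by the nuclear ring on U6 and the cytoplasmic ring that promotes mRNA decapping, lies at chr17:34981854-34985891. It read 687, 653.5 and 754 at 0 h, 682.5, 599 and 535 after 3 h, 587, 573 and 414 after 7 h, 338, 476.5 and 452 after 14 h, 138, 181 and 167 after 21 h and 62.8, 111 and 31.8 after 30 h. All arrays from 14 h on were below all arrays of 0 h, those of 21 h lay below those of 14 h, and those of 30 h lay below those of 21 h. The fall at 30 h was the largest of the 59 genes, at -3.18 ± 0.27 (adjusted p = 2.87e-08), or 9.04-fold. Its probe set carries a mark for probes shared between transcripts, so the gene it reads is uncertain.

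Lsm7, another subunit of both rings, lies at chr10:80852825-80855209 and has an unmarked probe set. It read 1519.8, 1446 and 1091 at 0 h, 1213, 1349 and 1471 after 3 h, 834, 1103.5 and 1032 after 7 h, 427.5, 652 and 776 after 14 h, 257, 368 and 339 after 21 h and 160.4, 186 and 142 after 30 h. The arrays of 0 and 3 h overlapped and those from 14 h on were all below both. Its log2 change was -1.19 after 14 h, -2.04 after 21 h and -2.92 ± 0.19 after 30 h (adjusted p = 5.38e-10), 7.58-fold lower.

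Lsm3, also in both rings, read 142, 184 and 157.5 after 30 h, against 760.1, 727 and 616 at 0 h (-1.98 ± 0.18, adjusted p = 4.89e-08). Lsm8, which marks the nuclear ring, read 194, 219.6 and 211 at 30 h, against 525, 461 and 516.5 at 0 h (-1.13, adjusted p = 1.16e-05). Lsm1, which marks the cytoplasmic ring, read 47.6, 81.2 and 99.6 at 30 h, against 211, 185 and 201 at 0 h (-1.20, adjusted p = 0.000218). The arrays at 30 h and 0 h did not overlap in any of these 3 genes. Lsm5, a subunit of both rings, was read only by a dim probe set that carries another symbol too, and it was not called (-0.21, adjusted p = 0.626), and Lsm6 was not analysed here.

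Lsm4 was not called until 30 h. Its log2 change was 0.00 at 14 h and -0.17 at 21 h, neither called, and then -0.74 ± 0.14 at 30 h (adjusted p = 0.000295). The arrays read 891, 1165 and 972.5 at 30 h, against 1329, 1567 and 1747 at 0 h. Lsm14a and Lsm14b, which act in mRNA translation control and P-bodies rather than in either ring, stood at 0.01 and -0.05 at 30 h and were not called at any time.

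Of the 11 U2 and branch site factors, 10 were lower and 0 were higher at 30 h, with a median log2 change of -1.09, and the remaining gene, U2af1l4, stood at -0.35 (adjusted p = 0.132). The share lower was 90.9%, beside 13.8% of all probe sets and 29.3% of those of mean signal 100 or more. U2af2, the large U2af subunit that reads the polypyrimidine tract, fell late. It read 3656, 3395 and 3551.5 at 0 h, 3689.6, 3417 and 3501 after 3 h, 3307, 3473 and 3357 after 7 h, 2821.5, 2795 and 3214 after 14 h, 1813, 2206 and 2714 after 21 h and 1211.5, 1057 and 1324 after 30 h. The arrays of 0, 3 and 7 h overlapped, the 3 arrays at 21 h were spread widely, and those at 30 h lay below all others. The change was -0.38 after 14 h, not called, -0.85 after 21 h and -1.76 ± 0.13 after 30 h (adjusted p = 2.96e-09).

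Sf3b3, a scaffold of the Sf3b complex, read 159, 114 and 121 after 30 h, against 494, 582 and 716 at 0 h (-1.96 ± 0.19, adjusted p = 1.08e-07). Sf3a3, a subunit of the Sf3a complex, read 178, 278 and 231 at 30 h, against 781, 768 and 834 at 0 h (-1.70 ± 0.16, adjusted p = 1.03e-07). In both genes every array at 30 h was below every array at 0 h. The small U2af subunit U2af1, which reads the AG of the 3′ splice site, changed by -1.57, Sf3b2 by -1.39 and Sf3a1 by -1.09. Smaller called falls were those of Sf3b6 (-0.68), Sf3b5 (-0.64), Sf3b1 (-0.58) and Sf3a2 (-0.44). A different probe set of Sf3a2 stood at 0.01 (adjusted p = 0.99). The probe sets of Sf3a2 and Sf3b2 both carry marks.

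Among the Sm and U snRNP proteins, 5 of 7 genes were lower and 1 was higher at 30 h, with a median of -1.13. These were 71.4% and 14.3%, beside 13.8% and 12.8% of all probe sets. Among those of mean signal 100 or more, the shares were 29.3% and 28.2%. Snrpg, the Sm ring protein G, read 3652, 3167 and 3197 at 0 h, 3199, 3462 and 3621 after 3 h, 3048, 3494 and 3197 after 7 h, 1805, 2527 and 2609 after 14 h, 1589, 1401 and 1581 after 21 h and 1184, 976 and 1005 after 30 h. The arrays of 0, 3 and 7 h overlapped, and each later time lay wholly below the one before. The change was -0.62 after 14 h, -1.30 after 21 h and -1.82 ± 0.12 after 30 h (adjusted p = 6.6e-10).

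Snrpa1, the U2 protein A′, read 72.4, 68.7 and 47.9 after 30 h, against 291.5, 264 and 404.5 at 0 h (-2.02 ± 0.25, adjusted p = 3.74e-06). Snrpd3, another Sm ring protein, read 103, 100.3 and 131 at 30 h, against 353, 397 and 510 at 0 h (-1.69 ± 0.29, adjusted p = 0.000116). Both genes separated fully. The Sm ring proteins Snrpe (-1.13) and Snrpb (-0.91) were lower too, through marked probe sets. Snrpc, the U1 protein C, stood at -0.52 (adjusted p = 0.0586).

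Snrpb2, the U2 protein B″, was called higher, and the call was lost under several settings. Its marked probe set read 110.3, 108 and 139 at 30 h, against 47.2, 68.9 and 59.9 at 0 h (0.94 ± 0.31, adjusted p = 0.0281). The groups did not overlap, yet the signals were dim. A further marked probe set of the gene, dimmer still, was called in the opposite direction, reading 23.2, 9.5 and 9.7 at 30 h, against 36.3, 44.2 and 32 at 0 h (-0.86, adjusted p = 0.0102). The mean over both stood at 0.04 (adjusted p = 0.925). The rise was not called without array A at 0 h (0.80, adjusted p = 0.113), array C at 0 h (0.99, 0.0511), array B at 30 h (0.97, 0.0549) or array C at 30 h (0.86, 0.0971).

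Of the 9 SR genes, 5 were lower at 14 h, and 7 were lower at both 21 and 30 h, with a median log2 change of -0.96 at 30 h and 0 higher. Of all probe sets, 6.77%, 10.9% and 13.8% were lower at 14, 21 and 30 h. Among those of mean signal 100 or more, 14.8%, 23.4% and 29.3% were. Srsf3, the smallest of the family and a promoter of mRNA export, read 811, 456 and 463 at 0 h, 490, 435 and 631 after 3 h, 444, 312 and 385 after 7 h, 201, 270.5 and 269 after 14 h, 122, 124 and 159.5 after 21 h and 90.9, 103 and 74.7 after 30 h. Array A at 0 h stood well above its fellows, and all arrays from 14 h on were below all arrays of the earlier times. The change was -1.13 at 14 h, -1.89 at 21 h and -2.41 ± 0.23 at 30 h (adjusted p = 1.2e-07). This rests on a marked probe set: the unmarked probe set of Srsf3 is dim, at 23.6 after 30 h and 29.8 at 0 h, stood at 0.34 after 14 h, -0.19 after 21 h and -0.23 after 30 h, and was called at none of these times.

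Srsf2, a general splicing activator, read 2072, 2608 and 2541 after 30 h, against 5766, 6745 and 5622 at 0 h (-1.44 ± 0.17, adjusted p = 1.39e-06). Another probe set of the same gene changed by -2.12, and both carry a mark. Srsf10, a regulator that represses splicing when dephosphorylated, read 52.6, 73.8 and 50.9 at 30 h, against 161, 132 and 175 at 0 h (-1.15 ± 0.28, adjusted p = 0.00386). In both genes the groups lay apart on these probe sets. A second unmarked probe set of Srsf10 read 74.3, 63.8 and 79.6 at 30 h, against 133, 89.6 and 74.9 at 0 h, with overlapping arrays, and was not called (-0.28, adjusted p = 0.504). Srsf6 (-0.99), Srsf1 (-0.96), Srsf5 (-0.87) and Srsf11 (-0.81) were also lower at 30 h. Srsf9 at -0.30 (adjusted p = 0.123) and Srsf4 at -0.12 (adjusted p = 0.625) were not called.

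Srsf11, Srsf5 and, on its main probe set, Srsf10 had reached most of their fall by 14 h. This was not particular to them. By 14 h Hnrnpk had covered 90.6% of its log2 fall, Sf3a2 87.6%, Hnrnpdl 69.7% and Srsf1 56.7%. The median over the 40 genes lower at 30 h was 40.5%. Srsf11 read 899, 758 and 806 at 0 h, 320.2, 556 and 485 after 14 h, 334, 455 and 391 after 21 h and 439, 447 and 455 after 30 h. Its log2 change was -0.87 at 14 h, -1.03 at 21 h and -0.81 at 30 h, all called. Srsf5 gave -0.77, -1.01 and -0.87 and Srsf10 gave -0.97, -1.18 and -1.15 at the same times. The second probe set of Srsf10 gave -0.48, -0.64 and -0.28 and was called at none of them (adjusted p = 0.285, 0.0884 and 0.504). In Srsf11 the arrays of these later times overlapped each other and lay below those of 0 h.

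The hnRNPs were split between genes that fell and genes not called. Of 16, 9 were lower and 0 were higher at 30 h, with a median of -0.66. The share lower was 56.2%, beside 13.8% of all probe sets and 29.3% of those of mean signal 100 or more. Hnrnpdl, a relative of Hnrnpd that shuttles between nucleus and cytoplasm, was the earliest gene to be called. It read 1199.5, 1002 and 1032.5 at 0 h, 1228, 961 and 1191 after 3 h, 767, 567 and 759 after 7 h, 459, 491 and 591 after 14 h, 342, 418 and 434 after 21 h and 342, 429 and 295 after 30 h. The arrays of 0 and 3 h overlapped, those of 7 h lay below both, and those of 21 and 30 h overlapped again. The change was -0.68 ± 0.16 after 7 h (adjusted p = 0.0158), -1.10 after 14 h, -1.45 after 21 h and -1.57 ± 0.16 after 30 h (adjusted p = 2.17e-07). The call at 7 h was lost without array A at 0 h (-0.57, adjusted p = 0.0892) and without array B at 7 h (-0.54, adjusted p = 0.107), and these values come from a marked probe set. The unmarked probe set of Hnrnpdl stood at -0.42 after 7 h (adjusted p = 0.611) and -0.81 after 14 h (adjusted p = 0.0697) and was lower after 30 h (-1.51, adjusted p = 0.000355).

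Hnrnpa2b1, a core hnRNP that sorts RNAs for transport, read 801.5, 1056 and 991 after 30 h, against 2203, 2595 and 2764 at 0 h (-1.54 ± 0.18, adjusted p = 1.64e-06). Hnrnpd, also known as AUF1, binds AU-rich elements of unstable mRNAs and read 398, 445 and 523 at 30 h, against 969, 1176 and 1082 at 0 h (-1.21 ± 0.19, adjusted p = 3.87e-05). Neither gene's groups overlapped. Hnrnpa1 (-1.06), Hnrnpab (-1.03), Hnrnph1 (-0.99), Hnrnpll (-0.89), Hnrnpm (-0.78) and Hnrnpk (-0.54) were the other called falls. Probe sets that carry the Hnrnpa1 symbol along with further symbols were not called at 30 h. The brighter of them averaged 248 over all arrays, against 111 for the main one. The hnRNP genes not called at 30 h ran from Hnrnpu at -0.51 (adjusted p = 0.0565) through Hnrnpl (-0.28), Hnrnpc (-0.25), Hnrnpr (-0.07), Hnrnph2 (0.03) and Hnrnpul2 (0.08) to Hnrnph3 at 0.17. Hnrnph1 and Hnrnph2 are close relatives, and only the first was called. Hnrnph2 was dim, with a mean signal of 39.2 over all arrays, against 713 for Hnrnph1. The difference between them was not tested.

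Neighbouring times were also compared directly. These comparisons share arrays with each other and with those against 0 h. The medians of the 59 log2 changes were -0.17 from 3 to 7 h and -0.28 from 7 to 14 h. They were -0.32 from 14 to 21 h and -0.15 from 21 to 30 h. Those of all probe sets lay between -0.002 and 0.015. The last of these steps had the most calls. Its median fall was the smallest here, but by a narrow margin that depended on the processing. Without quantile normalization the medians were -0.20 from 21 to 30 h and -0.16 from 3 to 7 h. Scaling to a common median gave -0.23 and -0.26. Between 3 and 7 h 1 gene, Hnrnpdl, was lower and 0 were higher, against backgrounds of 0.33% and 0.733%. Between 7 and 14 h 2 were lower and 1 was higher, against 1.07% and 1.26%. These were Prpf8 (-0.62, adjusted p = 0.0118), Snrpg (-0.50, adjusted p = 0.0292) and Prpf6 (0.70, adjusted p = 0.0103). Between 14 and 21 h 7 were lower and 0 higher, against 1.38% and 0.942%. The largest were Lsm2 (-1.27, adjusted p = 0.017), Lsm7 (-0.85, adjusted p = 0.0196) and Hnrnpab (-0.73, adjusted p = 0.0286). Hnrnpab read 199.5, 246.6 and 317.2 after 21 h, against 502.8, 358.8 and 446.7 after 14 h. Between 21 and 30 h 12 were lower and 0 higher, against 3.12% and 1.87%. The largest were Lsm2 (-1.19, adjusted p = 0.0136), Lsm3 (-1.13, adjusted p = 0.000557) and U2af2 (-0.90, adjusted p = 0.000181).

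In the last step 5 of the 8 Lsm genes were lower (Lsm2, Lsm3, Lsm4, Lsm7 and Lsm8), with 3 of 11 U2 and branch site factors, 2 of 16 hnRNPs, 1 of 8 Prpf genes, 1 of 7 Sm and U snRNP genes and 0 of 9 SR genes. Of all probe sets 3.12% were lower in that step, and of those of mean signal 100 or more 7.59%. Lsm4 changed by -0.57 in that step (adjusted p = 0.0176). Of the 40 genes lower at 30 h, the median gene had covered 40.5% of its log2 fall by 14 h, with quartiles of 30.2% and 53.1%. Lsm4 had covered 0.153% and Srsf11 106%.

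The step counts were fragile. With arrays scaled to a common median, 0 genes were called in each of the steps from 3 to 7, 7 to 14 and 14 to 21 h and 7 between 21 and 30 h. Fitting only the arrays of the compared times called 0, 0, 1 and 4 genes in these steps. Between 21 and 30 h 7 genes were called without array B at 21 h, 5 without array C at 21 h and 6 without array C at 30 h. Between 14 and 21 h 4 were called without array B at 14 h, 2 without array C at 14 h and 2 without array A at 21 h. Between 7 and 14 h 1 gene was called without array B or array C at 7 h and 0 without array A at 14 h, where Prpf6 gave 0.67 (adjusted p = 0.0513), Prpf8 -0.60 (0.0528) and Snrpg -0.40 (0.16). Prpf6 was not called without array C at 7 h (0.62, adjusted p = 0.0604), nor Prpf8 without array B at 7 h (-0.57, adjusted p = 0.0553), nor Snrpg without array A, B or C at 7 h (-0.48, -0.48 and -0.53, adjusted p = 0.0912, 0.0933 and 0.0644). Between 14 and 21 h Lsm2 was not called without array B at 14 h, array C at 14 h or array A at 21 h (-1.18, -1.22 and -1.14, adjusted p = 0.0769, 0.0817 and 0.0877). Without the same 3 arrays Lsm7 gave -0.80, -0.69 and -0.72 (adjusted p = 0.0819, 0.125 and 0.107). Hnrnpab was not called without array A or C at 14 h or array A or B at 21 h (-0.61, -0.72, -0.57 and -0.72, adjusted p = 0.0884, 0.11, 0.14 and 0.0802). Lsm2 between 21 and 30 h was not called without array B at 21 h (-1.10, adjusted p = 0.064) or array C at 30 h (-0.79, adjusted p = 0.0704), while Lsm3 and U2af2 were called without each array in turn. Of the 6 fits that each left out 1 array, only the one without array B at 3 h called Hnrnpdl between 3 and 7 h, and the others gave adjusted p-values of 0.0519 to 0.205.

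**Figure D4:**
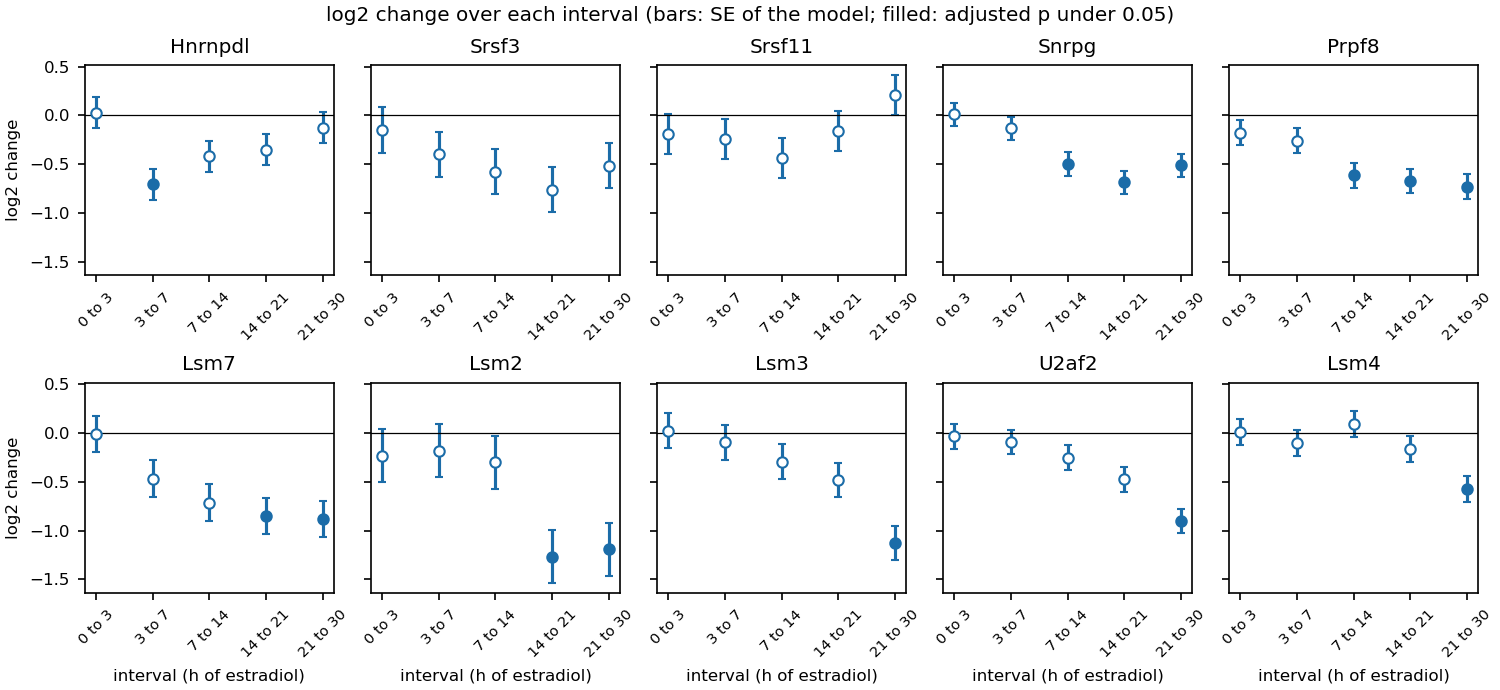
log2 change over each step between neighbouring times (points, bars are the SE of the model, filled where adjusted p was under 0.05) for 10 genes. Hnrnpdl has its filled point between 3 and 7 h, Lsm4 between 21 and 30 h alone at -0.57, and Srsf11 has none.

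Other genes of the same machinery were also lower at the later times. From a list of 148 further spliceosome genes and splicing regulators, 95 were measured, and 43 of them were lower and 4 higher at 30 h, with a median log2 change of -0.43. These were 45.3% and 4.21% of the list, beside 13.8% and 12.8% of all probe sets. The counts lower and higher were 0 and 0 after 3 h, 1 and 1 after 7 h, 16 and 5 after 14 h and 36 and 6 after 21 h. The 7 h counts were 1.05% each, below the 1.69% and 2.48% of all probe sets. At 14 h the shares were 16.8% and 5.26%, beside 6.77% and 6.55%, and at 21 h 37.9% and 6.32%, beside 10.9% and 9.75%. The largest falls were those of Wdr77 (-2.83, adjusted p = 2.61e-06), which helps methylate Sm proteins, Syncrip (-2.02, adjusted p = 1.08e-05), an hnRNP by another name, the mRNA export adaptor Alyref (-1.99, adjusted p = 8.17e-07) and Coil (-1.99, adjusted p = 1.84e-05), the scaffold of Cajal bodies, where snRNPs mature. Wdr77 averaged 59.7 at 30 h, against 541 at 0 h. The 4 that rose were Bud31 (1.42, adjusted p = 1.01e-06), a spliceosome component, Ncbp1 (1.04, adjusted p = 1.68e-05), the large nuclear cap-binding protein, the splicing regulator Celf2 (0.66, adjusted p = 0.0302) and Crnkl1 (0.63, adjusted p = 0.00494), a scaffold of the active spliceosome. Bud31 averaged 2904 at 30 h, against 983 at 0 h, through a marked probe set, and Celf2 was dim, at 15.3 at 30 h and 3.2 at 0 h. The difference between the list and the 59 genes was not tested.

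The arrays carried 12422 probe sets other than controls, 10833 of them with 1 gene symbol, and the lowest correlation between arrays of 1 time was 0.954. Of the 59 genes, 9 were read by marked probe sets, and the spans of 13 overlapped another protein-coding gene, among them Srsf2 with Mfsd11, Hnrnpdl with Enoph1 and Sf3b3 with Cog4. Gata1 read 479.9, 605 and 418 at 30 h, against 201, 157 and 269 at 0 h (1.29, adjusted p = 6.76e-05); whether its probe set reads the RNA of the fusion was not tested. Gata2, an early progenitor gene that active Gata-1 represses, read 112, 85.6 and 137 at 30 h, against 2092, 1939.7 and 1696 at 0 h. Of the erythroid markers, 5 of 6 measured were higher at 30 h, with summed signals of 51561 to 62469 at 30 h, against 8822 to 10873 at 0 h, led by the globin Hba-a1. Of other cell types, 3 of 9 mast cell markers were lower (summed 126.5 to 166 at 30 h, against 252 to 307 at 0 h), 1 of 5 megakaryocyte markers was lower (85.2 to 96.7 at 30 h, against 109 to 163 at 0 h), and 1 of 9 neutrophil and macrophage markers was higher (383 to 574 at 30 h, against 301 to 332 at 0 h). None of 8 lymphocyte markers (259.6 to 367 at 30 h, against 345 to 354 at 0 h) or 6 fibroblast markers (666 to 945 at 30 h, against 533 to 614 at 0 h) was called. Of these other markers, 8 of 9, 4 of 5, 6 of 9, 5 of 8 and 4 of 6 averaged under 50, and 0 were at 0. The part of these shifts in the falls of the splicing genes was not tested.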

How the data were processed

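RNA of 18 samples was hybridized to Affymetrix MG-U74Av2 arrays, 1 a sample, with 3 replicates at each of 6 times. The deposited values are signal intensities on a linear scale, per the labels. Detection calls, the way probes were summarized and the target of the scaling are not given in the sources used here. Trimmed by 2%, array means ranged from 150.094 to 150.124, so the authors had scaled the arrays before they deposited them. Array medians ran from 38.2 to 50.9.

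The 66 control probe sets were left out, 16 was added to each intensity and the log2 values were quantile normalized in limma 3.58.1 (R 4.3.3). One model over the 6 times (lmFit and eBayes with an intensity trend, 12 residual degrees of freedom) gave log2 changes, standard errors and Benjamini-Hochberg adjusted p-values over all 12422 probe sets, called at 0.05. Signals printed per array are as deposited. Fold changes are of signal plus 16 and understate changes of dim genes. An exact permutation test of 3 arrays against 3 cannot go below 0.1, so none was used. The number of arrays limits the precision.

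The platform table gave 1 symbol for 10833 probe sets, several for 396 and none for 1193. Probe sets whose names carry an f, s, r, i or g before the final at, which can read several transcripts, are called marked. Genes given array by array were, within each role group, the up to 3 largest called rises and falls at 30 h, and over all groups the up to 3 largest each way in each other comparison. Lsm1, Lsm4, Lsm8 and Srsf11, and the genes plotted, were added after their values were seen. The genes, role groups, other splicing genes and markers were chosen with earlier results of these data known. The same replicate letters stand at every time, but the labels do not say that a letter marks a shared batch, and the letters were not taken as pairs. Deviations from the time means correlated at -0.0918 to 0.205 over the 45 same-letter pairs, 3 of them over 0.1. The median was 0.0266, beside -0.00776 for different letters, and 13 of the 18 arrays correlated best with their own letter. An effect of the letter was examined only by a fit with it as a block. The scripts were tested on simulated data. Alternatives were the normalization, the added constant, the variance trend, array weights, the replicate letter as a block, the compared times alone, the dimmest 33.3% of probe sets left out, other probe sets for a gene, and each array left out in turn.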

Additional observations from a re-analysis of the deposited data

How the results depend on the processing

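The counts of splicing and hnRNP genes called at 30 h against 0 h lay between 34 (unmarked probe sets alone) and 45 over the alternatives, beside 42, and between 38 and 41 with an array left out. The setting of unmarked probe sets alone left out Lsm2, Sf3a2, Sf3b2, Snrpb, Snrpb2, Snrpe and Srsf2, which have none. Its counts are therefore of fewer than the 59 genes. At 21 h they lay between 29 and 38, and between 31 and 37 with an array left out, beside 36. The count at 3 h was 0 throughout. Earlier and stepwise counts were less stable, and the cause was not tested. Median scaling gave 0 genes at 7 h, 7 at 14 h, 0 between 3 and 7 h, 0 between 7 and 14 h, 0 between 14 and 21 h and 7 between 21 and 30 h. Fitting the compared times alone, with fewer arrays, gave 0 at 7 h, 0 between 3 and 7 h, 0 between 7 and 14 h, 1 between 14 and 21 h and 4 between 21 and 30 h. The mean over probe sets and the unmarked probe sets each gave 0 at 7 h and 0 between 3 and 7 h, and the unmarked ones gave 4 between 14 and 21 h. Without the intensity trend 0 genes were called between 3 and 7 h and 3 between 14 and 21 h. A constant of 64 and array weights each gave 2 genes at 7 h. With the replicate letter as a block, the counts were 2 at 7 h and 42 at 30 h, and 13 of the 18 arrays correlated best with their own letter, a hint from the data and not the design. With an array left out, the counts ran from 0 to 1 at 7 h, from 9 to 18 at 14 h, from 0 to 1 between 3 and 7 h, from 0 to 4 between 7 and 14 h, from 2 to 9 between 14 and 21 h and from 5 to 12 between 21 and 30 h; the F test called 38 to 42. Of the values of single genes, 388 of 423 under the alternatives kept their direction and their side of the threshold, 34 lost a call and 1 reversed, the unmarked probe set of Srsf3 at 14 h, which read 0.34 (adjusted p = 0.496). With arrays left out, 203 of 234 kept both and 31 lost a call. The rise of Snrpb2 at 30 h was not called without quantile normalization (0.86, adjusted p = 0.0596). Dim genes limit the precision: 6 of the 59 had a mean signal under 100 and 2 under 50.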

Other observations

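Probe sets that carried several symbols could not be tied to a gene and stood outside the 59, since their other symbols name predicted genes or pseudogenes. Of 8 such probe sets, 5 were lower at 30 h than at 0 h and 0 were higher (limma, adjusted p under 0.05). Both probe sets of Hnrnpa3 were among the 5. One averaged 827 at 30 h, against 2807 at 0 h (log2 change -1.88, adjusted p = 7.93e-08), and the other, dim, averaged 17.4 at 30 h, against 45.4 at 0 h (-0.91, adjusted p = 0.0168). That of Snrpa, the U1 protein A, averaged 330.1 at 30 h, against 908 at 0 h (-1.38, adjusted p = 2.98e-06). Those of the Sm ring proteins Snrpd1 and Snrpd2 changed by -1.91 (adjusted p = 2.81e-06) and -0.80 (adjusted p = 0.0232). That of Lsm5 was dim, at 11.2 at 30 h and 14.9 at 0 h, and not called. The remaining probe sets both carry the Hnrnpa1 symbol, and neither was called. One read 236.3, 187 and 183 at 30 h, against 261.6, 288.9 and 282.6 at 0 h. The other was dim, at 23.5, 28.4 and 30.2 at 30 h, against 25, 67.1 and 44.9 at 0 h. A probe set named for Snrp1c-ps2 stood at -0.13 (adjusted p = 0.825).

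The 19 further probe sets of 16 of the 59 genes held 7 falls and 0 rises at 30 h, and 12 were not called. Falls were read by another probe set of Srsf1 (-1.36, adjusted p = 0.000816), of Hnrnpab (-1.53, adjusted p = 7.92e-05) and of Sf3b1 (-0.55, adjusted p = 0.0239). Besides those of Srsf3, Srsf10 and Sf3a2 described above, the further probe sets not called while the gene's main one was lower were dim ones of Srsf1 (0.05), Snrpb (0.33), Hnrnpdl (0.12), Prpf19 (-0.62) and Hnrnpa2b1 (-0.53), with adjusted p-values of 0.944, 0.438, 0.768, 0.247 and 0.154.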
